A study of Mus musculus with 6 samples.

Results

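The genes described here are 10 assembly factors of respiratory complex I, namely Ndufaf1, Ndufaf2, Ndufaf3, Ndufaf4, Ndufaf5, Ndufaf6, Ndufaf7, Acad9, Ecsit and Timmdc1. They were taken as the probe sets that the platform annotation maps to 1 of these names. Each name had exactly 1 such probe set, so 10 of the 19938 named genes and 10 of the 35556 probe sets on the array are described. Expression was measured in fully-grown mouse oocytes at the germinal-vesicle stage, when transcription is largely silent, stripped of their cumulus cells, on 3 arrays from wild-type (Marf1+/+) females and 3 from females homozygous for an ENU-induced Marf1 mutation (Marf1 ENU/ENU). Both genotypes were of C57BL/6J;C3HeB/FeJ background, received eCG (equine chorionic gonadotropin, 5 IU) when 21 days old and gave oocytes after 46 hours, at 23 days. The mutation is carried by every cell of the female, and the labels state neither the base change nor whether the 3 samples of a genotype came from separate animals. The p-values and intervals below therefore cover only the variation among the samples at hand, whose source may be technical. An array reports RNA relative to all other RNA in the sample, so in these bulk samples fewer cells of a type and less RNA per cell cannot be told apart.

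Complex I, the NADH dehydrogenase of the inner mitochondrial membrane, takes electrons from NADH and passes them to ubiquinone while pumping protons. It is put together from modules, some of whose proteins are made in the mitochondrion and most in the cytosol. Assembly factors hold, modify or insert these modules and are absent from the finished enzyme. Fully-grown oocytes draw most of their ATP from mitochondrial oxidation of pyruvate supplied by cumulus cells. Marf1 encodes an RNA-binding protein with a nuclease domain that oocytes need to resume meiosis.

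The list was chosen by the measured log2 difference of Ndufaf1 between the genotypes, joined by genes known for the same task. The differences of the 10 genes are therefore given as a description, with no p-value, and support nothing by themselves. Values are log2 expression, so a difference of 1 is a 2-fold change, and differences are mutant minus wild type throughout. Levels of different probe sets are not compared with each other, because probes differ in brightness.

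Ndufaf1 was far higher in the mutant, and none of the other 9 factors moved by as much as 2-fold. Its probe set (10486284) gave 4.35, 5.18 and 4.44 on the wild-type arrays, always listed in the order of replicates 1, 2 and 3, and 9.37, 9.64 and 8.88 on the mutant arrays. The 2 groups of values were far apart, with wild-type replicate 2 the highest of its group and mutant replicate 3 the lowest of its own. The means were 4.66 ± 0.46 and 9.30 ± 0.39 (SD, n = 3 each), a difference of 4.64 (SE 0.28, 95% interval 3.99 to 5.29 from the limma fit), or 24.9-fold. Differences of at least 4 in size were found in 21 of 19938 genes, 0.105%. Leaving out each array in turn gave differences between 4.47 and 4.90. In wild-type replicates 1 and 3 the signal lay below 4.53, the level under which 95% of 1194 olfactory and vomeronasal receptor genes lie, and in replicate 2 above it. No background measure comes with these values, so the wild-type level may be overstated and the difference understated.

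**Figure D1:**
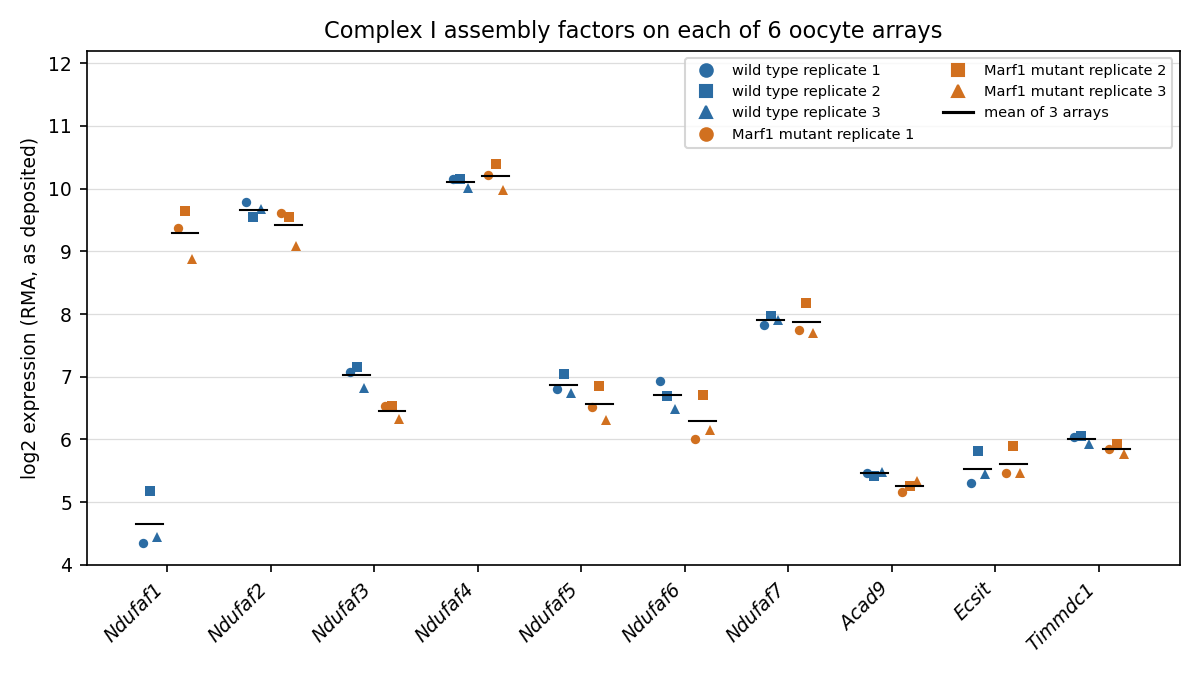
Log2 expression (RMA values as deposited, vertical axis) of the 10 assembly factors on each of 3 wild-type arrays (blue) and 3 Marf1-mutant arrays (orange), with black bars at the mean of 3 arrays and 1 symbol shape per replicate number. Ndufaf1 goes from 4.35 to 5.18 in wild type to 8.88 to 9.64 in the mutant, while the 2 groups of every other gene lie side by side or overlap. Heights of different genes are not comparable, since each has its own probes.

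Ndufaf1 works in the mitochondrial complex I intermediate assembly complex (MCIA), which builds part of the membrane arm, together with Ecsit, Acad9 and Tmem126b, and with Timmdc1 as a membrane-bound partner. Its partners on the list did not share its rise. Ecsit, an adaptor first described in Toll-like receptor signalling, read 5.31, 5.82 and 5.45 in wild type and 5.47, 5.90 and 5.47 in the mutant. The groups overlapped and the difference was 0.09 (SE 0.19, 95% interval -0.37 to 0.54). Acad9, which has the fold of an acyl-CoA dehydrogenase, read 5.47, 5.42 and 5.48 in wild type and 5.16, 5.26 and 5.34 in the mutant. All 3 mutant values were lower, but by little, with a difference of -0.20 (SE 0.13, 95% interval -0.50 to 0.10). Timmdc1, a multipass protein of the inner membrane, read 6.03, 6.05 and 5.93 in wild type and 5.85, 5.93 and 5.77 in the mutant. Wild-type replicate 3 and mutant replicate 2 had the same value, and the difference was -0.15 (SE 0.13, 95% interval -0.45 to 0.15).

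Promoter sequence is shown for Ndufaf1 and for Ecsit and Timmdc1, its 2 MCIA partners whose windows hold the same ETS-type motif while their levels differed by no more than 0.15 in size between the genotypes. RefSeq windows (GRCm38.p6), running from 250 bases before to 50 bases after the gene start, were at hand for 8 of the 10 genes. The one of Ndufaf1 is chr2:119662785-119663084, of Ecsit chr9:22085378-22085677 and of Timmdc1 chr16:38522614-38522913, all on the minus strand and printed 5′ to 3′ along the gene. Capitals mark the letters CCGGAAG or their reverse complement, the core bound by ETS factors.
Ndufaf1: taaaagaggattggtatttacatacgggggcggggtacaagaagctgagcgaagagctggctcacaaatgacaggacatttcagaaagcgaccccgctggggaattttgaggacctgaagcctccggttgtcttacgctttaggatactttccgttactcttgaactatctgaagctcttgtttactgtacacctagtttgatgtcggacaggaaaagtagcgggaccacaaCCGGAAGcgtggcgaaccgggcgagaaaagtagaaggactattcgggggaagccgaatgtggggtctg
Ecsit: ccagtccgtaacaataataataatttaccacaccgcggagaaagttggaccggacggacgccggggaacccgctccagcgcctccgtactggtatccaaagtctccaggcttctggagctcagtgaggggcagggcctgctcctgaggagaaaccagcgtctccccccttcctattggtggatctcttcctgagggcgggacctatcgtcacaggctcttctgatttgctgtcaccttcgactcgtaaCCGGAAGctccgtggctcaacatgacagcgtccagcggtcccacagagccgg
Timmdc1: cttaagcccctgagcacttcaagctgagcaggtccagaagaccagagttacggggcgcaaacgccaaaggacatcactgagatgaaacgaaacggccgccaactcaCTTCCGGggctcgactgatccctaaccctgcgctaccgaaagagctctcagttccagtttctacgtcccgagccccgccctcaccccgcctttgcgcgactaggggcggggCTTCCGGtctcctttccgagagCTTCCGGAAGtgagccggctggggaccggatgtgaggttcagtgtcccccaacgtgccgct
The motif began 18 bases before the start of Ndufaf1 and 2 bases before that of Ecsit. Timmdc1 had 4 matches, beginning 144, 33, 11 and 8 bases before the start, the last 2 overlapping each other on opposite strands. It was present in 3 of 8 windows (37.5%), against 8.86% of 32851 windows of all genes. The NRF1 motif, GCGC and TGCGC with 1 base of any kind between them, is known from many genes of respiration and was present in those of Ndufaf4 and Ndufaf5, 2 of 8 (25.0%) against 4.6%. The GC box GGGCGG was found in 7 of 8 (87.5% against 35.7%), the letters CCAAT in 4 of 8 (50.0% against 37.4%) and TATAAA in 0 of 8 (against 13.6%). Both strands were searched, the shares were not tested, and no data on transcription or binding at these windows were measured. The GC content of the Ndufaf1 window was 50.3%, below the 57.0% to 66.0% of the other 7 windows and close to the median of 52.7% over all genes. The 8 windows held the letters CG 17 (Ndufaf1) to 29 (Ndufaf3) times, against a median of 7 over all windows. The ETS, NRF1 and GC box motifs all contain CG, and their shares were not set against windows of like CG count.

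Ndufaf3 and Ndufaf4 bind each other and act early, on the module that reduces ubiquinone. Ndufaf3 had the lowest difference of the 10, reading 7.08, 7.16 and 6.82 in wild type and 6.53, 6.53 and 6.32 in the mutant. The groups did not overlap, and the difference was -0.56 (SE 0.15, 95% interval -0.91 to -0.21). Its partner Ndufaf4 read 10.15, 10.15 and 10.01 in wild type and 10.22, 10.39 and 9.98 in the mutant, with overlapping groups and a difference of 0.09 (SE 0.15, 95% interval -0.26 to 0.45). Whether the 2 binding partners differed from each other was not tested.

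The enzymes and enzyme-like factors of the list showed small differences. Ndufaf5, which hydroxylates an arginine of the core subunit Ndufs7, read 6.81, 7.05 and 6.74 in wild type and 6.51, 6.85 and 6.31 in the mutant. The groups overlapped through mutant replicate 2, and the difference was -0.31 (SE 0.18, 95% interval -0.73 to 0.11). Ndufaf7, a mitochondrial protein arginine methyltransferase, read 7.82, 7.97 and 7.91 in wild type and 7.75, 8.18 and 7.69 in the mutant. The mutant values lay on both sides of the wild-type ones, and the difference was -0.03 (SE 0.17, 95% interval -0.42 to 0.37). Ndufaf6, a relative of squalene and phytoene synthases, read 6.93, 6.69 and 6.48 in wild type and 6.00, 6.71 and 6.15 in the mutant. Mutant replicates 1 and 3 were low and replicate 2 was at the wild-type level, giving a difference of -0.41 (SE 0.22, 95% interval -0.92 to 0.10).

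Ndufaf2 acts late, sitting on a nearly finished enzyme at the place later taken by its relative, the subunit Ndufa12. It read 9.78, 9.54 and 9.67 in wild type and 9.61, 9.55 and 9.09 in the mutant. Mutant replicates 1 and 2 lay within the wild-type range and replicate 3 below it, and the difference was -0.25 (SE 0.18, 95% interval -0.66 to 0.17). Ndufa12 had a difference of -0.24 (SE 0.20, limma adjusted p = 0.622). Acadvl, the fatty acid oxidation enzyme to which Acad9 is related, had one of -0.28 (SE 0.13, limma adjusted p = 0.307), beside the -0.20 of Acad9.

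Of the 10 factors, Ndufaf1 rose past an adjusted p under 0.05 in limma over all probe sets, and the other 9 did not pass. That threshold was passed by 7.78% of all probe sets and by 10.4% of the 19938 genes, 6.4% higher and 4.04% lower. Since this contrast led to the choice of the list, nothing is read from that count. The 2 groups did not overlap for 3 of the 10, Ndufaf1 above and Ndufaf3 and Acad9 below, against 12.9% of all genes above and 17.7% below, 30.7% in all. The differences of 7 of the 10 were below 0, against 56.0% of all genes. Over the 9 factors other than Ndufaf1 the differences ranged from -0.56 to 0.09 with a median of -0.20. The median was -0.04 over all genes and -0.10 over genes with a probe set above the median level. The 95% intervals of these 9 ran from -0.92 at the lowest to 0.54 at the highest, so none reached a 2-fold change in either direction. The intervals are per gene, without adjustment for their number.

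**Figure D2:**
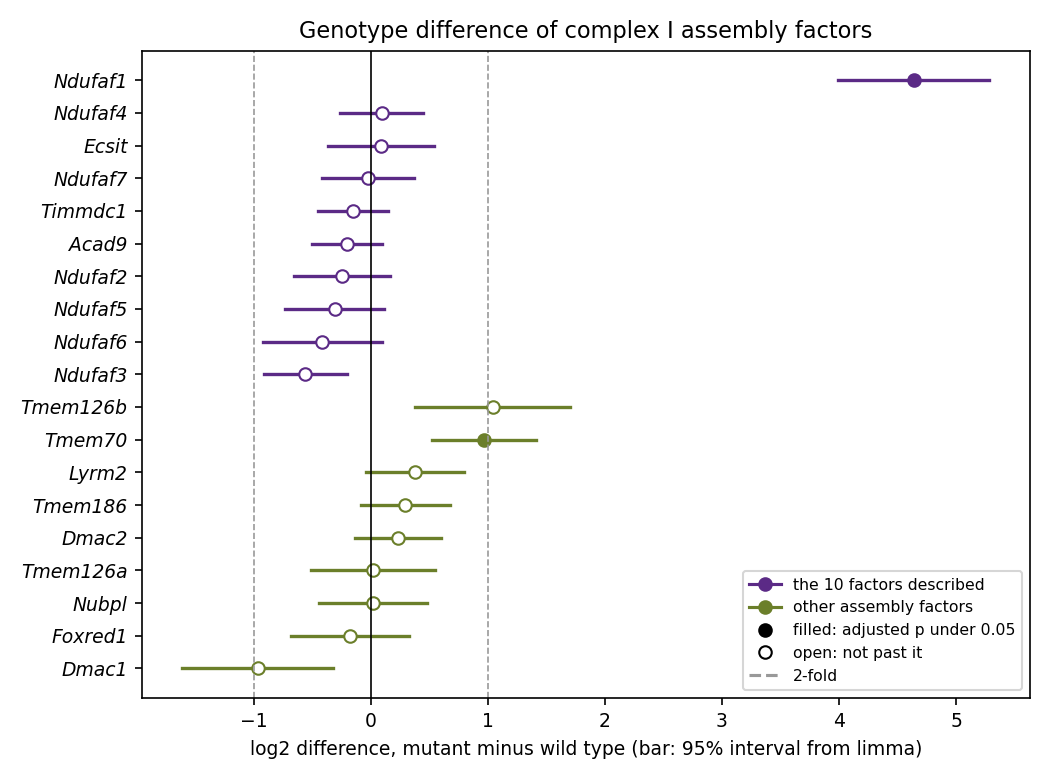
Log2 difference, mutant minus wild type (horizontal axis), with its 95% interval from limma (bars) for the 10 factors described (purple) and 9 other assembly factors of complex I (green), filled where the adjusted p was under 0.05 and with dashed lines at a 2-fold change. Ndufaf1 stands at 4.64, the other 9 of the list between -0.56 and 0.09 inside the dashed lines, and Tmem70 at 0.97 is the one filled point among the green genes.

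Comparing genes on the same array takes out any scaling shared by them. The mean of the 9 other factors was 7.26, 7.32 and 7.17 on the wild-type arrays and 7.01, 7.26 and 6.90 on the mutant arrays. Ndufaf1 minus that mean was -2.91, -2.14 and -2.73 in wild type and 2.36, 2.38 and 1.98 in the mutant. The within-array ratio thus differed by 4.83 between the genotypes. This size follows from the difference of Ndufaf1, which chose the list, and the -0.19 of the mean of the 9 others. Nothing further is read from it.

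The arrays of 1 genotype were not equally alike, and the factors showed it. Across probe sets wild-type arrays correlated at 0.984 to 0.985, mutant replicates 1 and 2 at 0.985, and mutant replicate 3 with the other mutants at 0.970 to 0.973. Mutant replicate 3 gave the lowest of the 6 values for 6 of the 10 factors (Ndufaf2, Ndufaf3, Ndufaf4, Ndufaf5, Ndufaf7 and Timmdc1), against 21.2% of all genes. It did so for 14 of 35 complex I subunits too, so this is not particular to the factors. Over all probe sets that array had a median of 4.76, against 4.56 to 4.67 on the other arrays. Its SD was the smallest, 2.04 against 2.14 to 2.20. Whether this narrower spread bears on the factors was not tested. Among the 3 mutant arrays replicate 2 was highest for 7 of the 10, against 28.9% of all genes. Without mutant replicate 3, Ndufaf1 alone of the 10 passed, beside 7.89% of probe sets and 10.2% of genes (7.14% higher, 3.09% lower). Nothing is read from this count either, since these same arrays led to the choice of the list. The difference of Ndufaf1 was then 4.85, and the median of the other 9 was -0.11 in place of -0.20. The differences of Ndufaf3 and Ndufaf2 were then -0.49 and -0.08. Marf1 itself was lower in the mutant, at 9.23 ± 0.08 against 6.18 ± 0.21 (difference -3.05, SE 0.15, limma adjusted p = 1.00e-04), a partial check of the labels, since the lesion's place relative to the probes is not known here. The 10 oocyte markers had mean levels of 6.33 to 11.7 over the 6 arrays, all above the receptor-gene level. All but Mos (0.08) had differences below 0, down to -0.45 for Nlrp5, and none was called. The log2 of their summed level was 14.09 to 14.24 in wild type and 13.84 to 14.15 in the mutant, with overlapping ranges. In limma, 1 of 11 measured markers of cumulus and granulosa cells was higher (Kitl), against 6.4% of all genes. Of the rest of that list only Fshr and Gatm had differences above 0, of 0.20 and 0.13. The others were below 0, down to -0.35 for Amh, and none of the rest was called. Of blood, immune and endothelial cells 1 of 6 was lower (Pecam1), against 4.04% of all genes, a call lost without wild-type replicate 1 or 3. By mean level, 4 of these 11 and 4 of these 6 lay below the receptor-gene level. The log2 of the summed level of the cumulus and granulosa list reached 8.16 in wild type and 8.31 in the mutant, with overlapping ranges. Kitl, with means of 3.72 in wild type and 5.66 in the mutant, is part of this sum. That of the blood, immune and endothelial list was at least 7.87 in wild type and at most 7.74 in the mutant. The largest signal in this sum was that of Pecam1, with means of 7.27 in wild type and 6.20 in the mutant. Cd68, Adgre1 and Ptprc had differences of 0.45, 0.30 and 0.12, and Kdr and Cdh5 of -0.10 and -0.12, none of them called. Within that list Pecam1, Kdr and Cdh5 thus had differences below 0, and Cd68, Adgre1 and Ptprc above 0. The summed level of the theca and stroma list overlapped between the genotypes. The part of any of these cell types in the results was not tested.

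The 5 genes whose pattern over the 6 arrays was most like that of Ndufaf1 had differences of 4.16 to 4.62, a size that the choice by likeness fixes. Likeness was the root mean square difference over 6 arrays after each gene was centred on its own mean. The closest was Ppp2cb, a catalytic subunit of protein phosphatase 2A, at 0.22, with a difference of 4.46 between the genotypes. Kbtbd2, an adaptor of Cul3 ubiquitin ligases, followed at 0.25 and the nuclear membrane protein Lemd3 at 0.26, with differences of 4.56 and 4.62. Tbpl2, the oocyte form of the TATA-binding protein, stood at 0.29 and the ubiquitin ligase Uhrf2 at 0.34, with differences of 4.16 and 4.40. In each of the 5, as in Ndufaf1, wild-type replicate 2 was the highest of its group, a pattern that the choice by likeness over these arrays favours. All wild-type values of Kbtbd2 and Lemd3, 2 of 3 of Uhrf2 and 1 of 3 of Tbpl2 were under 4.53 as well, and these differences may likewise be understated. The nearest of the other 9 assembly factors lay at 2.28, little under the median of all genes, 2.37. Over 6 arrays in 2 groups this measure mostly reflects the size of the genotype difference.

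The genes next to Ndufaf1 did not share its rise. In the order of the RefSeq annotation, the 3 nearest measured genes on one side were Nusap1, Oip5 and Chp1, and on the other Rtf1, Itpka and Ltk. Nusap1, a spindle protein, read 9.38, 9.28 and 9.12 in wild type and 8.77, 8.86 and 8.54 in the mutant. These groups did not overlap, yet the difference of -0.54 (SE 0.15) did not pass in limma (adjusted p = 0.0796). Rtf1, a subunit of the Paf1 complex of transcription elongation, had a difference of -0.01 (SE 0.13, limma adjusted p = 0.989). The other 4 had differences between -0.19 for Oip5 and 0.32 for Chp1, with limma adjusted p from 0.378 to 0.909.

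**Figure D3:**
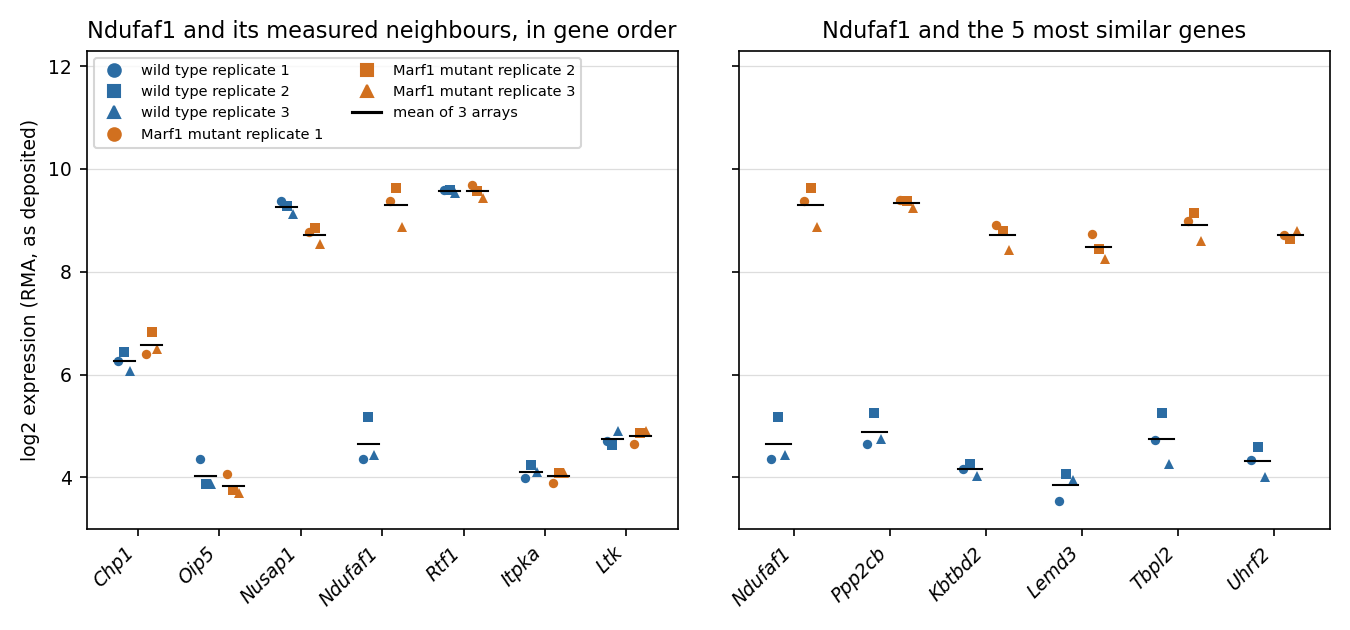
Log2 expression (RMA values as deposited, vertical axis) on each of 3 wild-type (blue) and 3 Marf1-mutant (orange) arrays, with black bars at the mean of 3 arrays, for Ndufaf1 between its measured neighbours in gene order (left) and beside the 5 genes of most similar pattern (right). Ndufaf1 is the one gene of the left panel with groups far apart, while the 5 similar genes of the right panel rise by 4.16 to 4.62.

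Among 9 measured assembly factors of complex I outside the list, 1 rose and 0 fell in limma (11.1%, against 10.4% of genes), with a median difference of 0.23. At an unadjusted p under 0.05 there were 2 higher and 1 lower, and without mutant replicate 3 the adjusted counts were 2 and 1. Tmem70, which is needed for ATP synthase and complex I assembly, read 8.83, 8.88 and 8.59 in wild type and 9.94, 9.89 and 9.37 in the mutant. Its groups did not overlap, and the difference was 0.97 (SE 0.19, limma adjusted p = 0.0229), a call that was lost when any 1 array other than mutant replicate 3 was left out and after median centring (0.0530). Tmem126b, the remaining core member of the MCIA, is named here after its values were seen. It read 6.67, 6.82 and 6.60 in wild type and 7.90, 8.25 and 7.07 in the mutant. All 3 mutant values were higher, replicate 3 by the least, and the difference of 1.04 (SE 0.28) did not pass in limma (adjusted p = 0.0732). Without mutant replicate 3 it passed (1.38, limma adjusted p = 0.00443), and without any 1 of the other 5 arrays it did not. With all 6 arrays it passed with 1 row per gene (0.0178), with rows above the median level (0.0318), after cyclic loess (0.0325) and after quantile normalization (0.0466), and under no other alternative. Dmac1, a membrane arm factor also named after its values were seen, read 6.97, 6.75 and 6.68 in wild type and 6.18, 6.15 and 5.17 in the mutant. Its groups did not overlap and its difference of -0.97 (SE 0.28) did not pass in limma either (adjusted p = 0.0845), though without mutant replicate 3 it did (-0.64, adjusted p = 0.0490). It also passed with 1 row per gene (0.0226) and with rows above the median level (0.0378), and under no other alternative.

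The subunits that these factors put together mostly had differences a little below 0, and none was called. Of 35 measured subunits, 7 core and 28 accessory, 0 passed the limma threshold, while 0 were higher and 5 lower at an unadjusted p under 0.05. For all genes these shares were 11.0% higher and 13.5% lower, 24.5% in all. The differences of 29 of the 35 (82.9%) were below 0, against 56.0% of all genes, and their median was -0.18. Over all genes the median was -0.04, and over genes with a probe set above the median level it was -0.10. Without mutant replicate 3 the median of the subunits was -0.10, beside -0.09 over all genes. After cyclic loess normalization it was -0.05, beside -0.01 over all genes. Among accessory subunits Ndufa9, which sits where the arms of the enzyme join, had the lowest difference. It read 9.94, 9.81 and 9.91 in wild type and 9.33, 9.51 and 9.10 in the mutant, a difference of -0.57 (SE 0.15, limma adjusted p = 0.0664). The largest positive difference in that list was 0.26 for Ndufc1 (SE 0.15, limma adjusted p = 0.427). Among core subunits Ndufs7, the substrate of Ndufaf5, had the lowest difference, -0.31 (SE 0.15, limma adjusted p = 0.315). The mitochondrially encoded ND3 had the highest, reading 10.12, 9.69 and 9.72 in wild type and 10.49, 10.58 and 9.90 in the mutant (0.48, SE 0.22, limma adjusted p = 0.288).

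Assembly factors of the other respiratory complexes were called at a share near that of all genes, in both directions. Of 31 measured for complexes II to V, 3 rose and 1 fell (12.9%, against 10.4% of genes), with a median of -0.11. The 4 act on cytochrome c oxidase, as do most genes of that list. Coa3, which couples translation of its largest subunit to assembly, rose by 1.34 (SE 0.29, limma adjusted p = 0.0334), from 5.24, 5.55 and 5.29 to 7.06, 7.06 and 5.99. The copper chaperone Cox11 rose by 1.27 (SE 0.29, limma adjusted p = 0.0392). Cox10 and Cox15 make the heme of the enzyme in successive steps, and they went opposite ways. Cox10 went from 9.18 ± 0.20 in wild type to 8.37 ± 0.14 in the mutant (SD, n = 3 each), with groups that did not overlap, a fall of 0.81 on the log2 scale (SE 0.16, limma adjusted p = 0.0226). Cox15 read 5.98, 5.84 and 5.53 in wild type and 6.93, 6.90 and 6.30 in the mutant (0.93, SE 0.21, limma adjusted p = 0.0412). After median centring of the arrays 1 of the 4 calls was left, that of Cox10, which in turn was lost after cyclic loess. Calls of Coa3 and Cox15 were lost without any 1 array other than mutant replicate 3. Those of Cox10 and Cox11 were lost without mutant replicate 1 or 2, wild-type replicate 1, and wild-type replicate 3 for Cox10 or 2 for Cox11.

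Complex I carries iron-sulfur clusters, and of 11 measured genes that make them 1 rose and 1 fell (18.2%, against 10.4% of genes), with a median of -0.18. Isca2, which helps to form 4Fe-4S clusters in the mitochondrion, read 4.12, 4.17 and 4.28 in wild type and 6.20, 6.16 and 6.09 in the mutant. The replicates of either genotype lay close together, and the rise was 1.96 (SE 0.13, 3.89-fold, limma adjusted p = 2.14e-04). All its wild-type values were under 4.53, that of the receptor genes, and the rise may be understated. It kept its call in every fit that left out 1 array. Lyrm4, the partner of the cysteine desulfurase Nfs1, changed by -0.68 (SE 0.16, limma adjusted p = 0.0470) and lost the call without any 1 array other than mutant replicate 2 and after median centring. Of the 11 acyl-CoA dehydrogenases related to Acad9, 1 rose and 1 fell (18.2%, against 10.4% of genes), with a median of 0.00. Acad8, of valine breakdown, rose by 0.88 (SE 0.17, limma adjusted p = 0.0212), and Acad11 changed by -0.95 (SE 0.17, limma adjusted p = 0.0155). The call of Acad8 was lost without mutant replicate 1 or 2 or wild-type replicate 2 or 3, and that of Acad11 without mutant replicate 1 or wild-type replicate 1 or 3. Without mutant replicate 3, 2 rose and 1 fell among the dehydrogenases, and 2 rose and 0 fell among the iron-sulfur genes.

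**Figure D4:**
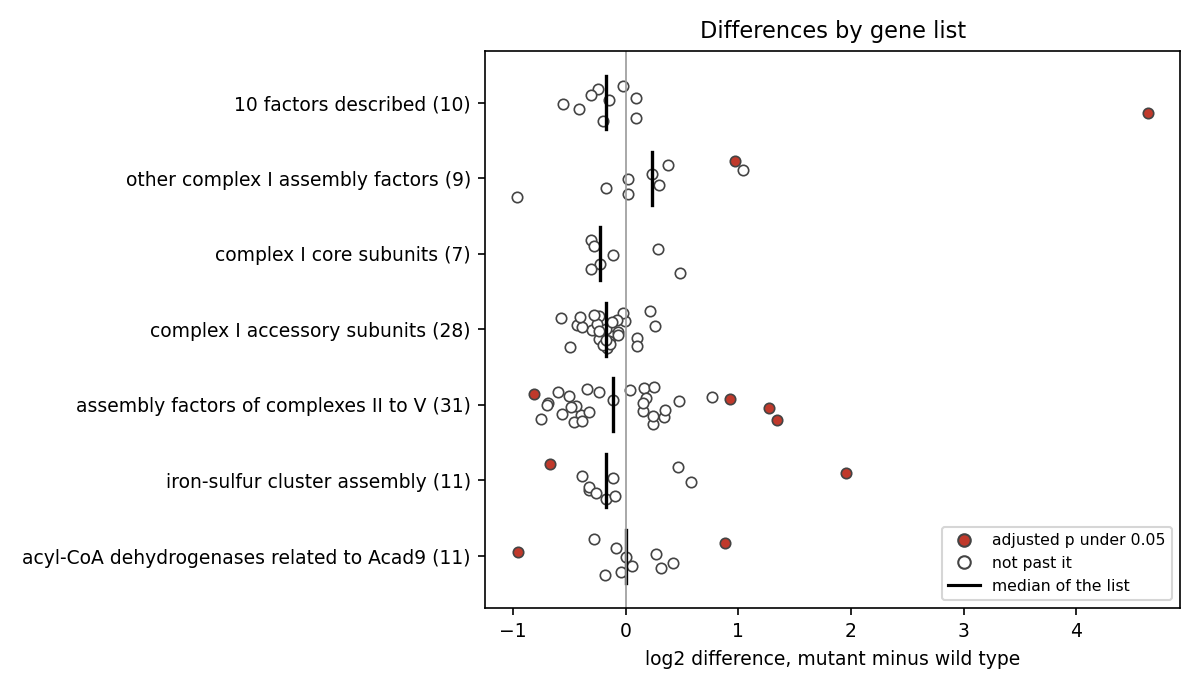
Log2 difference, mutant minus wild type (horizontal axis), of each measured gene in 7 lists, with the number of genes in parentheses, red where the adjusted p was under 0.05, and a black line at each list's median; vertical position within a list has no meaning. Ndufaf1 at 4.64 and Isca2 at 1.96 lie farthest to the right, and the complex I subunits cluster between -0.57 and 0.48 with no red point.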

How the data were processed

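Whole-transcript amplified RNA of 6 oocyte samples was hybridised, 1 sample to an array. Per the submitters' processing notes the authors used GCOS, Affymetrix Expression Console 1.1 and RMA, and they deposited log2 values, 1 per probe set and array, to 2 decimals. RMA brings the probe intensities of the arrays to a common distribution, so a change in total RNA per oocyte is not visible. The deposited probe set values were not equalized in full, with medians of 4.56 to 4.76 and SDs of 2.04 to 2.20 over the arrays. For the genome build, the sources used here give none. All 35556 probe sets were used, 21789 naming 1 gene; for a gene with several the one with the highest mean was taken. Groups and replicate numbers came from the titles.

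Mutant and wild-type arrays were set against each other with limma 3.58.1, run in R 4.3.3 (genotype as the only term, default eBayes, two-sided, Benjamini-Hochberg over all probe sets, adjusted p under 0.05). The pipeline was tested on simulated arrays. The members and lists were chosen with earlier results of these data known. Named genes were the 10 factors, Marf1, list members past the threshold or, for complex I, at the extremes, 3 neighbours per side of Ndufaf1, its 5 most similar genes, Ndufa12 and Acadvl. An exact permutation test of 3 against 3 cannot go below p = 0.10 and was not used. Alternatives were quantile, median and cyclic loess normalization, a filter on dim probe sets, 1 row per gene, trend with robust eBayes, a replicate block and leaving out each array. Genes with no row naming them alone were not analysed here.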

Additional observations from a re-analysis of the deposited data

How the results depend on the processing

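Isca2 kept its direction and its call under all 13 alternatives. The difference of Ndufaf1, which chose the list, ranged from 4.47 to 4.90. Ndufaf3 kept its direction under all of them (-0.66 to -0.41) and passed with 1 row per gene, with only rows above the median level and after quantile normalization. Nothing is read from these passes, since the list was chosen by this contrast. Differences near 0 changed sign: Ndufaf7 was 0.13 after cyclic loess and between -0.18 and 0.065 without single arrays (0.04 without mutant replicate 1, 0.065 without mutant replicate 3, 0.01 without wild-type replicate 2). Without single arrays Ndufaf4 ran from 0.00 to 0.20 (-0.0033 without mutant replicate 2), beside 0.21 after cyclic loess, and Ecsit from -0.0567 (without mutant replicate 2; -0.02 without wild-type replicate 1) to 0.23. Each factor has 1 probe set, so no other row could be tried. The cause of these changes was not tested.

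Changed probe sets numbered 2765 and, without single arrays, 1368 to 2804 (1399 when wild-type replicate 1 was left out, 1664 for 2 and 1368 for 3, and 1693 and 1726 for mutant replicates 1 and 2). The share of higher calls was 61.5%, and from 53.0% with 1 row per gene through 73.8% after cyclic loess to 78.3% without wild-type replicate 3, where lower calls numbered 297 in place of 1065. Median centring ended the calls of Tmem70 (0.0530), Cox11 (0.0678), Cox15 (0.0856), Coa3 (0.0658) and Lyrm4 (0.0952), and cyclic loess that of Cox10 (0.0743), as limma adjusted p. Complex I subunits past the threshold numbered 0, but 2 with 1 row per gene and 2 after quantile normalization (Ndufa9 and Ndufb10, both lower), and 1 with rows above the median level and 1 with trend and robust eBayes (Ndufa9). Using 1 row per gene, or rows above the median level, tests fewer rows. Same-numbered arrays of the 2 genotypes had deviations correlated at 0.15, -0.10 and 0.03. Arrays of different number were not compared in this way, so these values cannot tell whether samples of the same number belong together. With the replicate block 1946 probe sets passed, 0 subunits did, and Cox11 and Lyrm4 lost their calls. With 3 arrays a group, changes under 2-fold often went uncalled, and dim probe sets carry little information.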

Other observations

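Some 13 genes of the 6 pathway lists had a further probe set naming them alone, which no comparison above used. In 12 of these 13 the further probe set differed between the genotypes in the same direction as the one used, with limma adjusted p of at least 0.141 on all 13. Both probe sets of ND3 were higher on average in the mutant, by 0.48 and 0.50, and both of Ndufs3 lower, by 0.23 and 0.20 in size. Iba57, an iron-sulfur cluster gene, read 0.58 higher on the probe set used and 0.12 on the other.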
